A study of Zea mays with 6 samples.

Results

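Metal transporters and ferritin of maize roots were described here through 5 genes, taken as every array transcript whose identifier starts with GRMZM2G421491 (OPT7), GRMZM2G178190 (NRAMP1 as the study names it), GRMZM2G147560 (Nramp1), GRMZM2G111300 (ZIP4) or GRMZM2G325575 (ferritin). They made up 5 of the 39219 genes on the array and 7 of its 59756 transcripts. Nramp1 and ferritin had 2 transcripts each, T01 and T02, and the other genes 1 each. A RefSeq gene table of maize lists OPT7 also as GT1 and ZmGT1, ferritin as fer1, Nramp1 and ZIP4 under those names, and the study's NRAMP1 under a locus and a clone number only. They include genes that the study names as modulated in these same samples, so their choice was not independent of these arrays.

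Root RNA was hybridised to 6 single-colour NimbleGen arrays. The 3 arrays labelled Fe-deficient came from PR33T56 plants, a hybrid by the labels and an inbred line by the study's methods, that were 19 d old and had spent their last 7 d in solution without Fe-EDTA. The 3 arrays labelled Fe-sufficient came from PR33T56 plants of the same age that had received 100 µM Fe-EDTA over those 7 d. Seedlings of both groups had first been raised without Fe, the Fe-sufficient ones thus being returned to Fe after deprivation, and each array held RNA from the pooled roots of 6 plants. Arrays from Fe-deficient plants lay at positions 10, 11 and 12 of 1 slide and those from Fe-sufficient plants at positions 7, 8 and 9, so slide position and Fe supply cannot be told apart. Between the arrays as labelled, 0 of these 5 genes and 0 of the 8 further metal genes in a list from the study were called. Calls were rare on the whole array, with 25 of all 39219 genes called higher and 6 lower. Whether the labels of the deposited arrays match the comparison made in the study could not be settled from the files. Each direction therefore holds for the arrays as labelled, and no response of a gene to Fe supply is read from it.

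Iron enters the roots of grasses mainly as ferric iron bound to phytosiderophores, small chelators that the roots release, while ferrous iron and other divalent metals can pass through transporters of the NRAMP and ZIP families. NRAMP proteins move divalent metals together with protons, and ZIP proteins carry zinc, iron and related metals into the cytosol. Oligopeptide transporters move small peptides and, in some members of the family, metals or metal chelates; in Arabidopsis, OPT3 loads iron into the phloem. Ferritin is the plastid protein shell in which plants store iron, and maize ferritin transcripts are known to accumulate when plants are given iron.

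Between Fe-deficient and Fe-sufficient roots, none of the 5 genes passed the test, which 0.0853% of all transcripts passed. Both NRAMP genes read lower on every Fe-deficient array than on any Fe-sufficient array, Nramp1 by 2.01-fold and NRAMP1 by 1.41-fold between the means. By the transcript with the highest mean, 2949 of all 39219 genes were separated in this way. For NRAMP1 the nearest arrays were only 0.13 log2 units apart, and the groups overlapped at its probe at base 1018. ZIP4, with overlapping groups, was 1.43-fold lower in mean, and ferritin 1.16-fold lower in mean, with 1 high Fe-sufficient array. OPT7 stood at the same mean in both groups within 0.03 log2 units.

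Levels are log2 of the deposited intensity summarised over the probes of a transcript, and differences are Fe-deficient minus Fe-sufficient with the 95% interval of limma. A transcript was called at a limma p, adjusted by the Benjamini-Hochberg method over all 59756 transcripts, of at most 0.05 together with a fold change of at least 1.5. Of all transcripts 51 were called, or 0.0853%, and of the 7 member transcripts 0 were called. Without the requirement of adjustment, 2 member transcripts, both of Nramp1, had p at most 0.05, as did 10.3% of all transcripts, and only T01 of these 2 also passed the fold change. The count over all transcripts moved strongly with single arrays, between 1 without Fe-deficient 1 and 1050 without Fe-sufficient 1. No member transcript was called with any of the 6 arrays left out. This says little about the members, since at most 1050 of the 59756 transcripts were called in any of these fits. The means of all 7 member transcripts were lower on the Fe-deficient than on the Fe-sufficient arrays. So were those of 18845 of all 39219 genes, by the transcript with the highest mean. For OPT7 and ferritin T01 this sign turned when 1 array was left out. The replicates came from separate cultivations according to the study, with roots pooled per treatment. Whether arrays of the same number share a cultivation is not given by the labels. With 3 arrays per group, the number of arrays limits the precision of every value.

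A transcript was taken as above background on an array when at least 1 of its probes exceeded the 95th percentile of the random-sequence control probes there, a log2 intensity between 7.84 and 8.49. The transcripts with the highest mean of all 5 genes were above background on all 6 arrays, as was Nramp1 T02, and ferritin T02 was above it on 1 Fe-deficient and 1 Fe-sufficient array. Between 62.2% and 66.5% of probes passed this level on Fe-deficient arrays and between 58.4% and 65.3% on Fe-sufficient arrays. Of 9 root marker symbols 3 matched an array gene, and they stood for 2 genes, rtcs (also rtcs1) and rth3, both of which were above background on every array, with a mean log2 level of 10.92 to 11.74 on Fe-deficient arrays and 11.39 to 11.67 on Fe-sufficient arrays. Of 5 seed storage symbols 3 matched, and 2 of them, zp27 and o2, had at least 1 probe above background on all arrays. The summarised means of zp27, 7.54 in Fe-deficient and 7.41 in Fe-sufficient roots, lay below the background level. Those of o2, 8.07 and 8.09, lay within its range over the arrays. Of 11 symbols of photosynthetic shoot tissue 6 matched, with 3 above background on all arrays, among them ppdk1, and rca1, which encodes Rubisco activase, on none. The mean log2 level of the matched shoot markers lay between 8.54 and 8.68 on Fe-deficient arrays and between 8.30 and 8.67 on Fe-sufficient arrays. It was raised by ppdk1, with means of 14.75 in Fe-deficient and 14.17 in Fe-sufficient roots. The next highest matched marker, me3, stood at 8.85 and 8.72. The means of cab-m7, 8.10 and 8.25, lay within the range of the background level. The part of the shoot markers in the results was not tested.

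**Figure D1:**
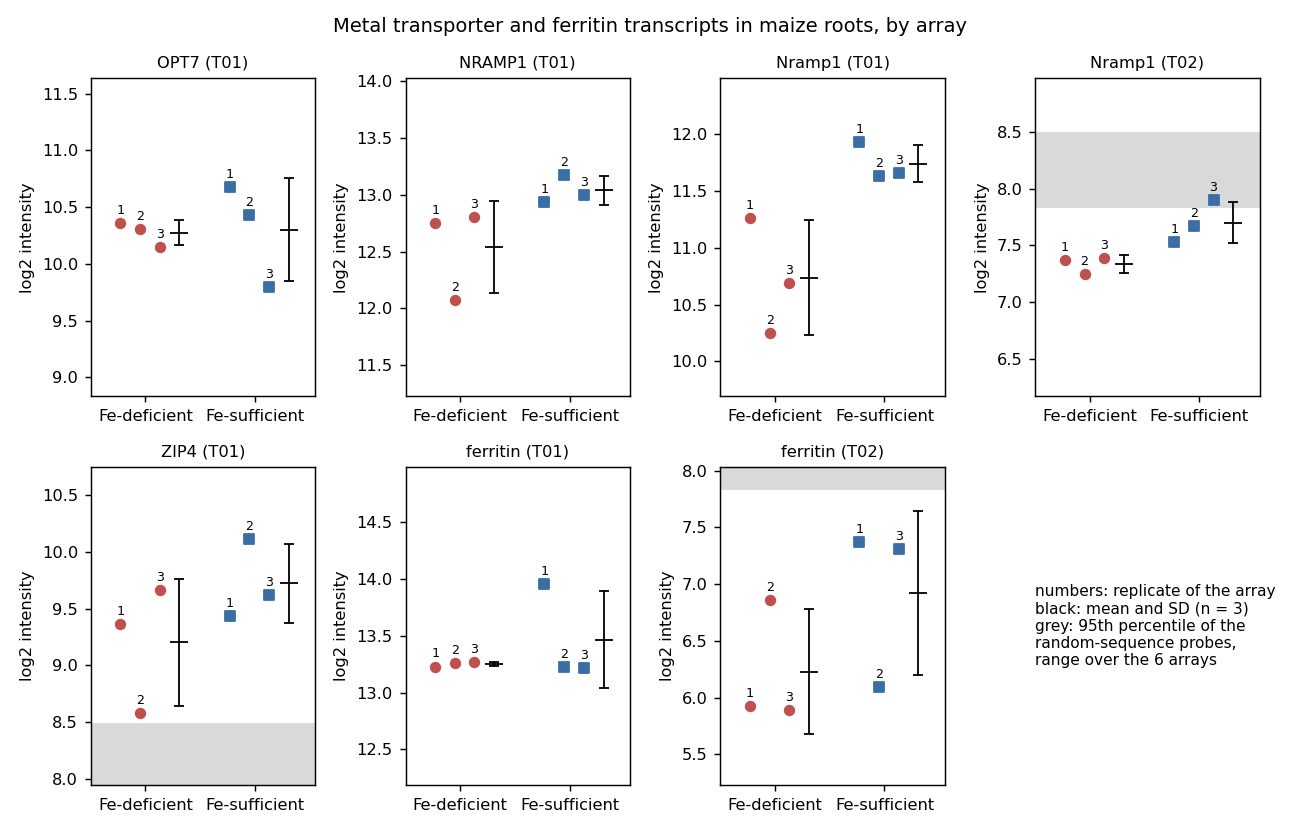
Log2 intensity (vertical axes) of the 7 member transcripts on each array, with Fe-deficient arrays as red circles and Fe-sufficient arrays as blue squares numbered by replicate, the mean with its SD (n = 3) in black, and the range over arrays of the background level in grey. For Nramp1 T01 the Fe-deficient arrays sit between 10.25 and 11.26, all below the Fe-sufficient arrays at 11.63 to 11.93, whereas for OPT7 the groups overlap.

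Among the NRAMP genes, Nramp1 (GRMZM2G147560), a predicted divalent metal transporter, had the largest gap between the groups of any member. Nramp1 T01 stood at log2 levels of 11.26, 10.25 and 10.69 in Fe-deficient roots, against 11.93, 11.63 and 11.66 in Fe-sufficient roots. All 3 Fe-deficient arrays lay below all 3 Fe-sufficient arrays, by a gap of 0.37 between the nearest arrays. The means were 10.73 ± 0.51 in Fe-deficient roots and 11.74 ± 0.17 in Fe-sufficient roots (SD, n = 3 each), a difference of -1.01 (95% interval -1.63 to -0.39), or 2.01-fold lower. Its unadjusted limma p was 0.00648, which ranked 962 among the 59756 transcripts, and the limma adjusted p was 0.403, so it was not called. In pooled whole roots, fewer cells of a type and less RNA per cell cannot be told apart. An unadjusted p at most 0.05 with a fold change of at least 1.5 downward was met by 2.8% of all transcripts.

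The size of the Nramp1 difference depended on the single Fe-deficient arrays, which spread over 1.01 log2 units, against 0.30 for the Fe-sufficient arrays. It was 2.41-fold lower without Fe-deficient 1 and 1.70-fold lower without Fe-deficient 2, and with weights for array quality it was 1.55-fold lower (limma adjusted p = 0.214).

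Both probes of Nramp1 T01 separated the groups. The probe at base 44 of the transcript read intensities of 7173, 3555 and 3922 on Fe-deficient arrays, against 10408, 9714 and 9405 on Fe-sufficient arrays. The probe at base 1325 read 842, 419 and 693 on Fe-deficient arrays and 1466, 1036 and 1114 on Fe-sufficient arrays. The probe differences were -1.08 (95% interval -1.76 to -0.41) and -0.93 (95% interval -1.63 to -0.23). Fe-deficient 2 was the lowest array at both probes.

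The second transcript of the gene, Nramp1 T02, was summarised from a probe at base 382 that was above background on every array and a probe at base 22 that was above it on none. Its levels were 7.37, 7.24 and 7.39 in Fe-deficient roots, against 7.53, 7.67 and 7.90 in Fe-sufficient roots. The groups did not overlap, but the nearest arrays were only 0.14 apart. The difference was -0.37 (95% interval -0.72 to -0.01), or 1.29-fold lower, with an unadjusted p of 0.0445 and a limma adjusted p of 0.479. At the probe at base 382 alone the intensities were 556, 445 and 404 on Fe-deficient arrays and 577, 668 and 846 on Fe-sufficient arrays, 1.48-fold lower (limma adjusted p over probes = 0.479). T01 and T02 belong to 1 gene and are not independent of each other, and whether the probes of one also bind the other was not tested.

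The other NRAMP gene, NRAMP1 of the study (GRMZM2G178190), had levels of 12.75, 12.07 and 12.80 in Fe-deficient roots, against 12.94, 13.18 and 13.00 in Fe-sufficient roots. The groups did not overlap, by a margin of 0.13 between Fe-deficient 3 and Fe-sufficient 1, and Fe-deficient 2 stood well below the other 5 arrays. The means were 12.54 ± 0.41 in Fe-deficient roots and 13.04 ± 0.12 in Fe-sufficient roots (SD, n = 3 each). The difference was -0.50 (95% interval -1.02 to 0.03), or 1.41-fold lower, with an unadjusted limma p of 0.0604 and an adjusted p of 0.494. In folds the interval ran over 0.492 to 1.02 between the arrays as labelled. Without Fe-deficient 2 the difference was -0.26, or 1.2-fold lower.

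Its probes differed in how cleanly they separated the arrays. At base 1448 the intensities were 9300, 6717 and 9554 on Fe-deficient arrays, against 12491, 12471 and 11516 on Fe-sufficient arrays, with no overlap. At base 1018 they were 5097, 2766 and 5360 on Fe-deficient arrays and 4932, 6895 and 5845 on Fe-sufficient arrays, with Fe-sufficient 1 below both Fe-deficient 1 and Fe-deficient 3. Fe-deficient 2 was thus the low array at base 1018, while all 3 Fe-deficient arrays were low at base 1448.

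**Figure D2:**
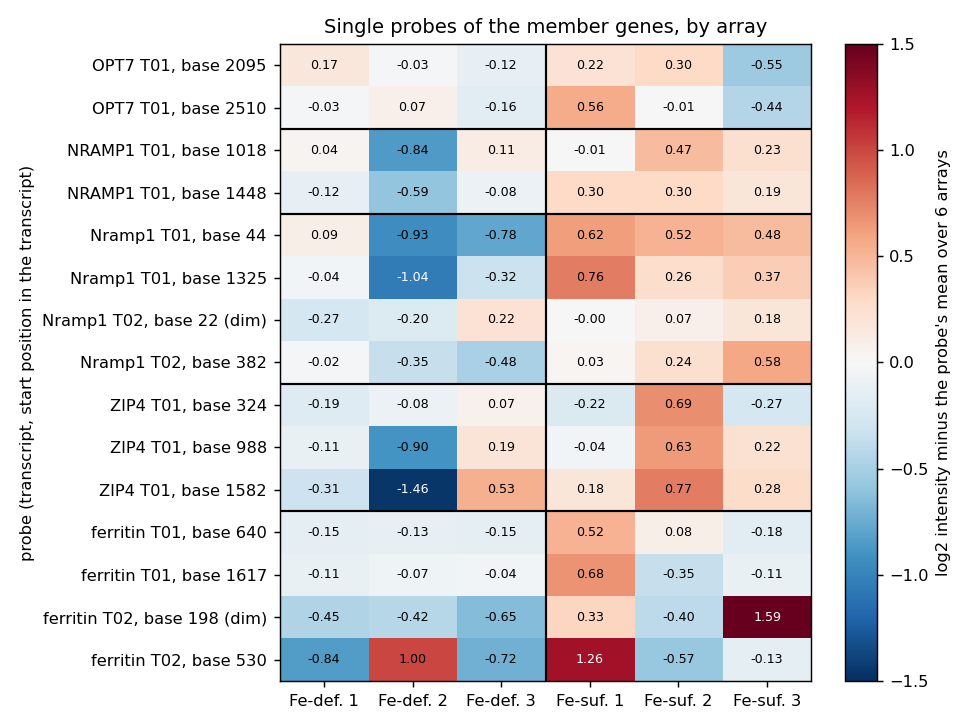
Log2 intensity of each of the 15 member probes on each array, minus the mean of that probe over the 6 arrays (colour, with the value printed), with Fe-deficient arrays on the left and Fe-sufficient arrays on the right of the vertical line and probes named by transcript and starting base. Both Nramp1 T01 probes are lowest on Fe-deficient 2, at -0.93 and -1.04, and the ferritin T01 probes stand out on Fe-sufficient 1, at 0.52 and 0.68.

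ZIP4 (GRMZM2G111300), whose relatives in other plants carry zinc, had levels of 9.37, 8.58 and 9.67 in Fe-deficient roots, against 9.44, 10.11 and 9.62 in Fe-sufficient roots. The groups overlapped, since Fe-deficient 3 exceeded both Fe-sufficient 1 and Fe-sufficient 3, and the lowest and the highest array were both the second replicate of their group. The means were 9.21 ± 0.56 in Fe-deficient roots and 9.73 ± 0.35 in Fe-sufficient roots (SD, n = 3 each). The difference of -0.52 (95% interval -1.26 to 0.22), or 1.43-fold lower, had a limma adjusted p of 0.566. It was -0.16 without Fe-deficient 2 and -0.75 without Fe-deficient 3.

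ZIP4 was the member with 3 probes. At base 1582 the intensities were 524, 237 and 939 on Fe-deficient arrays and 737, 1106 and 788 on Fe-sufficient arrays, where the value on Fe-deficient 2 was below background. At base 324 they were 370, 399 and 444 on Fe-deficient arrays and 363, 684 and 352 on Fe-sufficient arrays, with Fe-sufficient 2 alone set apart. The 3 probe differences were -0.14 at base 324, -0.55 at base 988 and -0.82 at base 1582, each with a 95% interval that included 0.

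OPT7 (GRMZM2G421491), of the oligopeptide transporter family, had levels of 10.36, 10.31 and 10.15 in Fe-deficient roots, against 10.67, 10.43 and 9.79 in Fe-sufficient roots. The Fe-deficient arrays lay wholly within the range of the Fe-sufficient arrays, which held both the highest and the lowest value. The means were 10.27 ± 0.11 in Fe-deficient roots and 10.30 ± 0.45 in Fe-sufficient roots (SD, n = 3 each). The difference was -0.03 (95% interval -0.59 to 0.54), with an unadjusted limma p of 0.916 and an adjusted p of 0.974. In folds the interval ran over 0.665 to 1.45 between the arrays as labelled. Leaving out single arrays gave -0.28 without Fe-sufficient 3 and 0.16 without Fe-sufficient 1, so no direction can be given for this gene. Its probes at bases 2095 and 2510 gave differences of 0.02 and -0.07.

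Ferritin (GRMZM2G325575), the iron store, had T01 levels of 13.23, 13.26 and 13.27 in Fe-deficient roots, against 13.96, 13.23 and 13.22 in Fe-sufficient roots. The Fe-deficient arrays and 2 of the Fe-sufficient arrays lay within 13.22 to 13.27, and Fe-sufficient 1 alone was higher. The means were 13.25 ± 0.02 in Fe-deficient roots and 13.47 ± 0.43 in Fe-sufficient roots (SD, n = 3 each). The difference of -0.21 (95% interval -0.74 to 0.31), or 1.16-fold lower, had a limma adjusted p of 0.731. Without Fe-sufficient 1 it was 0.03, so the direction rests on that array.

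The high value of Fe-sufficient 1 was present at both ferritin T01 probes. At base 1617 the intensities were 13813, 14221 and 14510 on Fe-deficient arrays and 23850, 11700 and 13781 on Fe-sufficient arrays. At base 640 they were 6686, 6789 and 6686 on Fe-deficient arrays and 10625, 7850 and 6568 on Fe-sufficient arrays. The Fe-deficient arrays differed from each other by 0.04 log2 units in this transcript, the narrowest spread of a group in any member.

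Ferritin T02 was dim. Its levels were 5.93, 6.86 and 5.89 in Fe-deficient roots, against 7.37, 6.09 and 7.31 in Fe-sufficient roots, and the groups overlapped. The probe at base 198 was below background on every array and the probe at base 530 was above it only on Fe-deficient 2 and Fe-sufficient 1. The difference of -0.70 (95% interval -1.68 to 0.28, limma adjusted p = 0.562) was measured mostly on intensities in the range of the random-sequence probes.

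Over the 15 member probes, 0 were called by limma with p adjusted over all 139000 transcript probes, of which 0.0518% were called. Before adjustment, 4 member probes had p at most 0.05, as did 10% of all probes. The mean was lower in Fe-deficient roots for 14 of the 15, the exception being OPT7 at base 2095. At 5 of the 15 all Fe-deficient arrays lay below all Fe-sufficient arrays, against 7.6% of all probes, and these were NRAMP1 at base 1448, Nramp1 at bases 44, 1325 and 382, and the ferritin T02 probe at base 198, which was below background throughout. Of the member transcripts, 3 of 7 had groups that did not overlap with Fe-deficient lower, against 7.65% of all transcripts. Those 3 were NRAMP1 and both transcripts of Nramp1, so they stand for 2 genes.

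**Figure D3:**
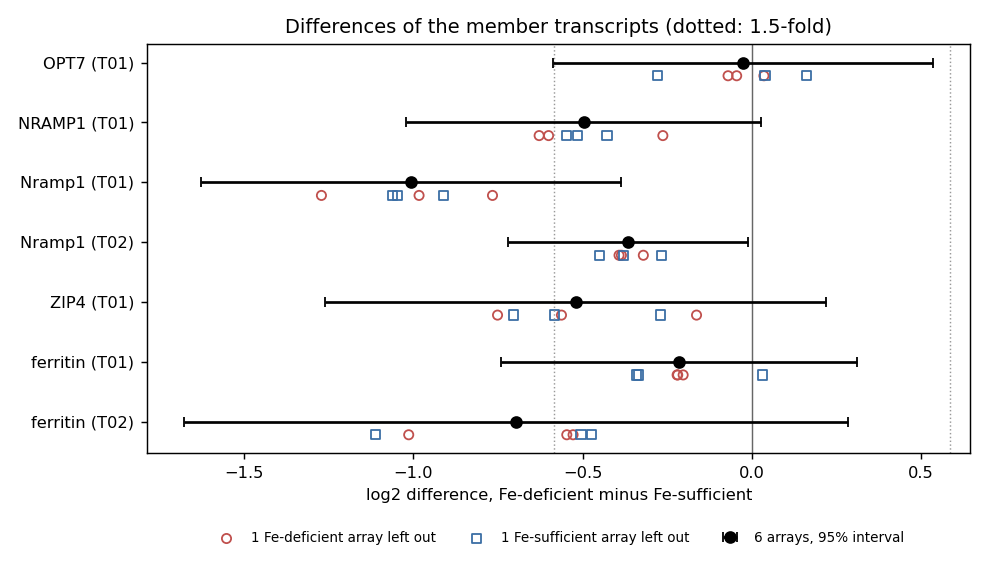
Log2 difference, Fe-deficient minus Fe-sufficient (horizontal axis), of the 7 member transcripts, with black points and bars for all 6 arrays and their 95% interval, red circles for 1 Fe-deficient array left out, blue squares for 1 Fe-sufficient array left out and dotted lines at 1.5-fold. Nramp1 T01 stays between -1.27 and -0.77 with any array left out, while OPT7 and ferritin T01 fall on both sides of 0.

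Fe-deficient 2 recurred as the low array. It was the lowest of the 6 arrays in 4 of the 7 member transcripts, NRAMP1, both transcripts of Nramp1 and ZIP4, and in 22.3% of all transcripts, the largest such share of any array. It was likewise the highest array in 21.7% of all transcripts. Its part in the differences of these genes was measured by leaving it out: NRAMP1 then stood at -0.26, Nramp1 T01 at -0.77, Nramp1 T02 at -0.32 and ZIP4 at -0.16.

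The array profiles of the members were set side by side after each was centred on its own mean over the 6 arrays, with the root mean square distance in log2 units as the measure. The closest pair was NRAMP1 and ZIP4, at 0.17, followed by OPT7 and ferritin, at 0.22. NRAMP1 and ZIP4 had in common a low Fe-deficient 2 and a high Fe-sufficient 2, whereas OPT7 and ferritin shared a high Fe-sufficient 1. The 2 NRAMP genes were 0.35 apart, and OPT7 and Nramp1, at 0.60, were the farthest pair. The own variation of the members about their means was 0.27 for OPT7, 0.35 for NRAMP1, 0.59 for Nramp1, 0.46 for ZIP4 and 0.27 for ferritin on the same scale.

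Among 2136 named genes above background on all arrays, those with profiles most like the members differed from member to member. NRAMP1 was closest to hk2 at 0.059, the calcium sensor CBL8 at 0.063 and the proton pyrophosphatase H+-PPase at 0.084. Nramp1 had no neighbour as near in log2 units: CHI stood at 0.19, the peroxidase PER42 at 0.21 and the cytochrome P450 CYP714B3 at 0.23. The distances were not scaled to a gene's own variation, which was largest for Nramp1, at 0.59. OPT7 was closest to BIGE1 at 0.080, DBP1 at 0.092 and PR10 at 0.096, and ZIP4 to lac4 at 0.11, bZIP7 at 0.13 and Recq4 at 0.14. Ferritin T01 was closest to gln1 (GRMZM5G885867) at 0.076, ANR_3 at 0.094 and PER66 at 0.095. These distances describe 6 arrays that share 1 slide and carry no test.

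Other genes of metal transport and storage were taken from a pair of lists, by the transcript with the highest mean. A search of RefSeq symbols for metal transporter, ferritin and metallothionein names gave 12 genes, of which 3 are members, 2 (mtl1 and fer2) could not be matched to an array identifier, and 7 remained. Of these 7, limma called 0 in either direction, and 0 had p at most 0.05 before adjustment. Only 5 of the 7 were above background on all arrays. The gene mtl2 was above it on 1 Fe-deficient and 1 Fe-sufficient array, and ysl11 on 2 of each. Their median difference was 0.12, with 3 below and 4 above 0, beside a median of 0.01 over all 39219 genes, of which 25 were called higher and 6 lower, and a median of -0.50 over the 5 members.

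In that list ys1 (GRMZM2G156599), the ferric phytosiderophore uptake transporter, had levels of 11.08, 10.90 and 10.86 in Fe-deficient roots, against 11.34, 11.81 and 11.11 in Fe-sufficient roots. The groups as labelled did not overlap, as in 2949 of all 39219 genes with Fe-deficient lower. The difference was -0.47 (95% interval -0.95 to 0.01, limma adjusted p = 0.491), 1.38-fold lower. The other 3 genes of lowest p were of the yellow stripe-like family, ysl14A at -0.33, ysl17 at 0.12 and ysl12 at 0.48, all with overlapping groups. The summarised means of ysl17, 6.94 in Fe-deficient and 6.82 in Fe-sufficient roots, lay below the background level, though at least 1 of its probes passed it on every array. YS3 (GRMZM2G063306), which the table also lists as ZmTOM1, read 12.61, 11.14 and 12.59 in Fe-deficient roots and 8.49, 13.51 and 12.52 in Fe-sufficient roots. Fe-sufficient 1 stood well below the other 5 arrays, the groups overlapped, and the difference was 0.61 (95% interval -2.29 to 3.51).

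**Figure D4:**
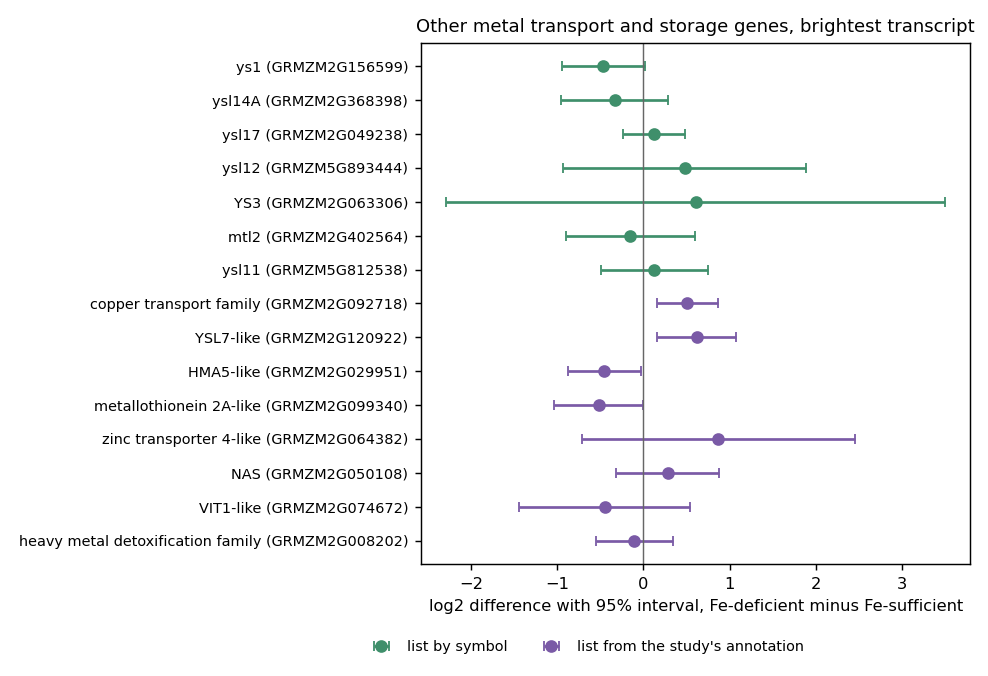
Log2 difference, Fe-deficient minus Fe-sufficient, with its 95% interval (horizontal axis) for 7 metal genes found by symbol (green) and 8 that the study's annotation assigns to metal handling or transport (purple). The points lie on both sides of 0 between -0.52 and 0.87, and YS3 has the widest interval, -2.29 to 3.51.

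The second list held 8 genes that the study names as modulated and annotates to metal handling or transport, apart from the members. The study chose it on these samples, so it is not independent evidence of a direction. Of the 8, limma called 0 at the adjusted p and 4 had p at most 0.05 before adjustment, as did 9.73% of all genes. The median difference was 0.09, with 4 genes below and 4 above 0. A copper transport family gene (GRMZM2G092718) read 8.98, 9.06 and 8.80 in Fe-deficient roots, against 8.60, 8.32 and 8.38 in Fe-sufficient roots, a difference of 0.51 (95% interval 0.16 to 0.86, limma adjusted p = 0.433). A YSL7-like gene (GRMZM2G120922), of the family that carries metal chelates, read 9.04, 9.45 and 9.47 in Fe-deficient roots, against 8.60, 8.53 and 8.98 in Fe-sufficient roots, a difference of 0.62 (limma adjusted p = 0.445). In both, every Fe-deficient array lay above every Fe-sufficient array, as in 3821 of all 39219 genes.

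An HMA5-like gene (GRMZM2G029951), of the copper-exporting P-type ATPases, and a metallothionein 2A-like gene (GRMZM2G099340), of the small cysteine-rich metal-binding proteins, were separated the other way. Of all 39219 genes, 2949 were separated in that direction. The HMA5-like gene read 13.32, 12.89 and 12.90 in Fe-deficient roots and 13.40, 13.69 and 13.37 in Fe-sufficient roots, 1.37-fold lower (limma adjusted p = 0.475). The metallothionein gene read 9.87, 9.93 and 10.43 in Fe-deficient roots and 10.44, 10.44 and 10.91 in Fe-sufficient roots, 1.44-fold lower (limma adjusted p = 0.482). The nearest arrays of the metallothionein gene were almost level. The other 4 genes of the list had overlapping groups, with differences of 0.87 for a zinc transporter 4-like gene, which Fe-deficient 2 led at 13.79, 0.28 for a gene of nicotianamine synthase, which makes the chelator from which phytosiderophores derive, -0.45 for a gene like VIT1, the vacuolar iron transporter of Arabidopsis, and -0.11 for GRMZM2G008202, of a metal detoxification family. Without Fe-sufficient 1 the list medians were -0.18 for the genes found by symbol and -0.11 for those of the study, so the sign of neither median was kept.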

How the data were processed

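The NimbleGen arrays (Cy3 only) carried 139000 probes for transcripts and 1663 of random sequence. The deposited values are linear probe intensities, to which the authors had applied quantile normalization after image analysis in NimbleScan; the study's methods and the submitters' processing notes name RMA. The deposited intensities shared an upper quartile of 2779.72 and medians of 549.97 to 550.03, so no further normalization was made. The sources used here do not say whether background was subtracted.

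Log2 intensities were summarised per transcript by median polish (2 probes for 40256 transcripts, 3 for 19494, 1 for 6) and compared in limma 3.58.1 (lmFit, then eBayes; R 4.3.3) without covariates, adjusting p over 59756 transcripts. A second fit used single probes. Names came from a RefSeq table (Zm-B73-REFERENCE-NAM-5.0), in which 18172 array genes matched 1 gene. The members and lists were chosen with earlier results of these data known. Genes named beside the members were up to 4 per list by unadjusted p and up to 3 per member by root mean square distance; YS3 and the remaining genes of the study's list were named after their values were seen.

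The fits were also tested on simulated data with 50 changed transcripts at each fold. Levels and spread of the simulated data were taken from these arrays and their fit. The rule for calls recovered 0% of those changed 1.5-fold, 8% at 2-fold, 74% at 4-fold and 88% at 8-fold. A change of 2-fold or less would thus mostly be missed, and a member not called is not shown to be unchanged. Alternatives were the background correction, the between-array normalization, the probe summary, weights for the arrays, removal of dim transcripts, a block for the replicate number, single arrays left out, other thresholds, the spread estimate with a trend and the deposited value table. Tables and figures used Python 3.11.15, pandas 2.3.3 and matplotlib 3.10.9.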

Additional observations from a re-analysis of the deposited data

How the results depend on the processing

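The member transcripts were recomputed under 19 alternatives (18 for ferritin T02, which the filter on dim transcripts removed). NRAMP1, both Nramp1 transcripts, ZIP4 and ferritin T02 kept their direction in all of them. Several alternatives could not turn a direction, however. Other thresholds, the dim filter, the replicate block, the trend and the deposited value table leave the difference itself unchanged. Median scaling and repeated quantile normalization hardly alter intensities that already share their quantiles. OPT7 turned to 0.089 with array weights and ferritin T01 to 0.032 without Fe-sufficient 1. With 1 array left out OPT7 ran between -0.28 and 0.16 (0.04 without Fe-deficient 3, 0.16 without Fe-sufficient 1 and 0.04 without Fe-sufficient 2) and ferritin T01 between -0.34 and 0.03. The adjusted p of Nramp1 T01 ran between 0.214 and 0.783, and 1 member transcript was called only with unadjusted p (Nramp1 T01, at -1.01), where 2 member probes and 1 gene of the study's list also passed.

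Over all transcripts 51 were called (42 higher, 9 lower). The count was 3190 (1515 higher, 1675 lower) with unadjusted p, 28 (24 higher, 4 lower) with RMA-type background correction and 165 (120 higher, 45 lower) with array weights. With 1 array left out it ran between 1 and 1050, with 1 to 156 higher and 0 to 894 lower. The median of the study's list was -0.06 with array weights. The cause of these shifts was not tested. With the replicate number as a block 0 were called, 0 higher and 0 lower, and the adjusted p of Nramp1 T01 was 0.540 (unadjusted 0.00337). The study repeated its collection in independent cultivations and pooled roots per treatment, so a cultivation may have supplied both groups. The array titles give only a replicate number. Arrays of the same number deviated with correlations of -0.12, -0.01 and 0.07, and the numbers were not taken to pair the samples. With so few arrays these correlations cannot show that pairing is absent.

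With 3 arrays per group the intervals of the member differences were wide, -1.63 to -0.39 for Nramp1 T01 and -0.59 to 0.54 for OPT7. Probe sequences were not used here, so binding of a probe to related genes of the NRAMP, ZIP or ferritin families, or sequence differences between PR33T56 and the B73 gene models of the array, were not tested. The intensities of Nramp1 T02 and ferritin T02 lay at or under the level of the random-sequence probes at 1 or both of their probes.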
